A study of Mus musculus with 5 samples.

Results

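The 10 genes described here are Trp53, which encodes the transcription factor p53, and 9 genes that p53 is known to activate directly: Mdm2, Mdm4, Cdkn1a, Ccng1, Bax, Bbc3, Pmaip1, Sesn2 and Trp53inp1. They were taken by name from 21938 protein-coding genes annotated on the mouse autosomes, X and Y. For each gene, the chromatin immunoprecipitation and sequencing (ChIP-seq) peaks within 1000 bp of any of its annotated transcription start sites (TSSs) and in its body were read from 4 deposited lists.

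The lists come from MG tumors, a mouse model of medulloblastoma, a cerebellar tumor of childhood. Neural stem cells that carried Prominin1 and lacked lineage markers were sorted from the cerebella of neonatal wild-type C57BL/6 mice, infected with retroviruses encoding Myc (the T58A form, which is more stable) and Gfi1, and transplanted into the cerebella of adult NSG hosts, which lack T, B and NK cells. Tumors 39 and 41 were each immunoprecipitated once with the Gfi1 antibody GNE-CJS-2 and once with the Lsd1 antibody ab17721, so that all 4 libraries carry both introduced genes and no library without Gfi1 serves as a control. The only input among the samples came from a pool of MGB tumors and was not analysed here. Per the study's methods, peaks were called against input controls. Whether this pool was the control for all 4 lists is not stated. Both factors were read in the same 2 tumors, and comparing 2 libraries with 2 cannot give a two-sided exact permutation p below 0.333. For this reason no difference between libraries was tested, and the values below are descriptions. ChIP peaks carry no expression values, so the cell type could not be checked against marker genes, and host cells in the tumor tissue were not separated.

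p53 is a transcription factor that is stabilized when DNA is damaged or when an oncogene such as Myc is overactive, and its targets halt the cell cycle, repair DNA or kill the cell. Mdm2 and Mdm4 hold p53 in check and are themselves p53 targets, which closes a feedback loop. Gfi1 is a zinc finger repressor that brings corepressors to promoters, among them Lsd1, an enzyme that removes methyl groups from histones. The study asked whether Gfi1 suppresses the p53 pathway in these tumors. It reported that p53 and p21 proteins still rose after DNA damage, and that p21 did not where p53 was inactivated by DNp53. Lsd1 protein was reported to be no higher in MG tumors than in neural stem cells. The study proposes that repression of p53 is unlikely to be the main role of Gfi1. Its authors could not exclude that Gfi1 works partly through pathways under p53 control as well. The peak lists show where Gfi1 and Lsd1 were found along the genes themselves, and not whether the genes were repressed.

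The sequences below are shown because they are matches to the sequence that p53 binds that lay inside Gfi1 or Lsd1 peaks. p53 binding was not measured here. A p53 response element is made of 2 adjacent half-sites of 10 bases. Both strands of the genome (GRCm38.p6, the same coordinates as mm10) were searched for elements with the core of both half-sites intact and at most 2 mismatches elsewhere. The 4 elements printed here are those that had 1 mismatch and lay in a peak in at least 3 of the 4 libraries, within 15000 bp upstream of a gene or inside it. Each is given 5′ to 3′ on the strand of its gene, with 20 bases on either side in lower case and the element in capitals. Their positions, flanks included, were chr17:29090908-29090967 (plus strand) for the upstream promoter of Cdkn1a, chr17:29079019-29079078 (plus) for the far upstream element of Cdkn1a, chr11:40754916-40754975 (minus) for the first intron of Ccng1 and chr10:117717716-117717775 (minus) for the element upstream of Mdm2.
Cdkn1a upstream promoter: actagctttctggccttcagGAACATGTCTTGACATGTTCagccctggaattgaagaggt
Cdkn1a far upstream: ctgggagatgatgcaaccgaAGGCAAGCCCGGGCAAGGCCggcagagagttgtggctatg
Ccng1 first intron: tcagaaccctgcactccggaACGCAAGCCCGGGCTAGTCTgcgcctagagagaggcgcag
Mdm2 upstream: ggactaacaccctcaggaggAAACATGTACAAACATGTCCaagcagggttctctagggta

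Annotated promoters of Cdkn1a and Bbc3 are printed for contrast, since the 2 promoters of Cdkn1a were covered differently and that of Bbc3 lies under the widest peaks of the group. They run from 250 bases before to 50 bases after a RefSeq start, were taken from RefSeq on GRCm38.p6 and matched the genome base for base. In the first, the capitals mark the p53 element, and in the other 2 they mark CpG dinucleotides. The upstream Cdkn1a promoter (chr17:29090729-29091028, plus strand) held 2 CpGs and lay wholly inside a peak in 3 libraries. The downstream Cdkn1a promoter (chr17:29093519-29093818, plus) held 23 CpGs and lay inside a peak in all 4. The Bbc3 promoter (chr7:16310181-16310480, plus), the one with most CpGs of 3 for this gene, held 39 CpGs and lay inside a peak in all 4. The median of all 32851 promoters in the table was 7 CpGs. Promoters with fewer CpGs than the last 2, those of Trp53 (10 CpGs) and the downstream one of Mdm4 (9 CpGs), also lay inside a peak in all 4 libraries. Of the 12 promoters read, the 2 with fewest CpGs were the only ones not inside a peak in all 4. These were the upstream ones of Cdkn1a (2 CpGs, 3 libraries) and of Mdm4 (4 CpGs, 0 libraries). A link between CpG count and cover was not tested.
Cdkn1a upstream promoter, 300 bases: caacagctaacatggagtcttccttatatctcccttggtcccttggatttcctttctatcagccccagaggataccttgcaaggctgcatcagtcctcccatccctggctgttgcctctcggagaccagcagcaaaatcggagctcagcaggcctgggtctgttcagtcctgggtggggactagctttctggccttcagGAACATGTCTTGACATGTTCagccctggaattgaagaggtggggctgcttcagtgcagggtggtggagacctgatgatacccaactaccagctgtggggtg
Cdkn1a downstream promoter, 300 bases: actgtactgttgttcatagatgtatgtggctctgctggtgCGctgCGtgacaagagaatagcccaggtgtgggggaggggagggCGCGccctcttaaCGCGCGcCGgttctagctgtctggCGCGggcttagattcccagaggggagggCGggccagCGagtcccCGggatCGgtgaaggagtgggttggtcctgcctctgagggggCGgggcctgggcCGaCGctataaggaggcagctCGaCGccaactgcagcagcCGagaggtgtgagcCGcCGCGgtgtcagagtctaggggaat
Bbc3 promoter, 300 bases: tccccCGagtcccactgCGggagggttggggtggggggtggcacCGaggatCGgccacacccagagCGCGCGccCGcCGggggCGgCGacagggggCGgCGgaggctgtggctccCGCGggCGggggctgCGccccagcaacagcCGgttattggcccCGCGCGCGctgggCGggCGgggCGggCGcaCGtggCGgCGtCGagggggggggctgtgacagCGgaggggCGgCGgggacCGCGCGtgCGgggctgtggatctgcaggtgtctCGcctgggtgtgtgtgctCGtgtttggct

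The 4 lists held 36836 Gfi1 peaks for tumor 39, 25078 Gfi1 peaks for tumor 41, 30367 Lsd1 peaks for tumor 39 and 33213 Lsd1 peaks for tumor 41. Column 5 of the lists is a score whose definition is not given in the sources used here, so each peak is described by its percentile, the share of peaks in the same list with a score at or below its own. Between 0.0479% and 2.19% of peaks in a list shared the tied score of 3100, so percentiles near 100 separate poorly. The lists give no read counts, and the depth behind a single peak is therefore unknown.

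p53 and its targets were covered at their TSSs almost throughout. A TSS peak was listed for 10 of 10 genes in Gfi1 tumor 39, 9 in Gfi1 tumor 41, 10 in Lsd1 tumor 39 and 10 in Lsd1 tumor 41, where 65.0%, 54.3%, 58.5% and 61.7% of all protein-coding genes had one. A TSS peak in all 4 libraries was found for 9 genes, against 53.1% of coding genes. The exception was Pmaip1, which had none in Gfi1 tumor 41. Among the other pathway genes listed below, 39 of 43 (90.7%) had a TSS peak in all 4 libraries.

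The TSS peaks of the group ranked above the middle of the coding genes in every library. The median percentile of the genes' highest-scoring TSS peaks was 92.7 in Gfi1 tumor 39, where the median of coding genes with a TSS peak was 82.5. In Gfi1 tumor 41 the medians were 90.4 and 77.4, in Lsd1 tumor 39 they were 88.9 and 79.0, and in Lsd1 tumor 41 they were 91.3 and 81.0. Averaged over the 2 tumors, the median was 92.0 for Gfi1 over the 9 genes with a peak in both, against 81.5 over 11833 coding genes. For Lsd1 it was 90.4 over all 10 genes, against 80.9 over 12651 coding genes. The group median was thus higher for either factor and in either tumor, while single genes of the group ranged from 37.9 to 99.9. A median above that of the coding genes was not particular to the group. For the other pathway genes listed below it was 87.4 for Gfi1 (39 genes) and 85.5 for Lsd1 (41 genes). In bulk tissue, a lower score from fewer bound cells and one from less binding in each cell cannot be told apart.

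**Figure D1:**
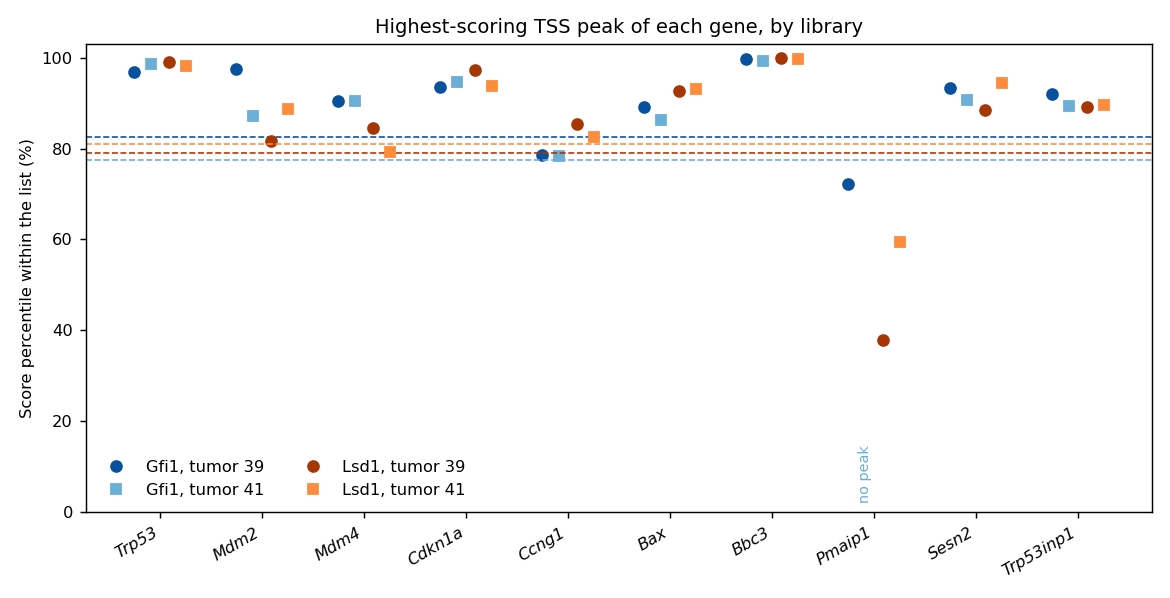
Percentile of the highest-scoring TSS peak of each gene within its own peak list (y axis, %), with 1 point for each library. Dashed lines are the medians of coding genes with a TSS peak, at 82.5 (Gfi1, tumor 39), 77.4 (Gfi1, tumor 41), 79.0 (Lsd1, tumor 39) and 81.0 (Lsd1, tumor 41), and Pmaip1 lies below them in every library in which it has a peak.

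The group mostly fell in the upper part of each list. A TSS peak in the upper 20% of scores was listed for 8 of 10 genes in Gfi1 tumor 39 (36.2% of coding genes) and 8 in Gfi1 tumor 41 (24.6%), in both without Ccng1 and Pmaip1. In Lsd1 tumor 39 it was listed for 9 genes (28.1%), all but Pmaip1, and in Lsd1 tumor 41 for 8 (32.2%), all but Mdm4 and Pmaip1. It was found in all 4 libraries for 7 genes, against 19.9% of coding genes and 23 of 43 (53.5%) of the other pathway genes.

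Peaks that were both strong and shared between tumors were common in the group. A high-confidence peak was one that was strong in both tumors, with the score in place of enrichment. It was a peak of tumor 39 in the upper 20% of its list with at least 50% of its length inside upper 20% peaks of tumor 41. This left 4387 Gfi1 and 5181 Lsd1 peaks. A high-confidence Gfi1 peak lay at a TSS of 8 of the 10 genes (22.9% of coding genes), all but Ccng1 and Pmaip1. A high-confidence Lsd1 peak also lay at 8 genes (25.9% of coding genes), all but Mdm4 and Pmaip1. Trp53, Mdm2, Cdkn1a, Bax, Bbc3, Sesn2 and Trp53inp1 had both, 7 of 10, against 19.5% of coding genes and 23 of 43 (53.5%) of the other pathway genes. The count is sensitive to the cut: it fell to 3 with the upper 10% of scores, and also to 3 when 80% of the length had to overlap. The share of coding genes was not computed at these stricter cuts, so the 19.5% cannot be set beside the counts of 3.

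**Figure D2:**
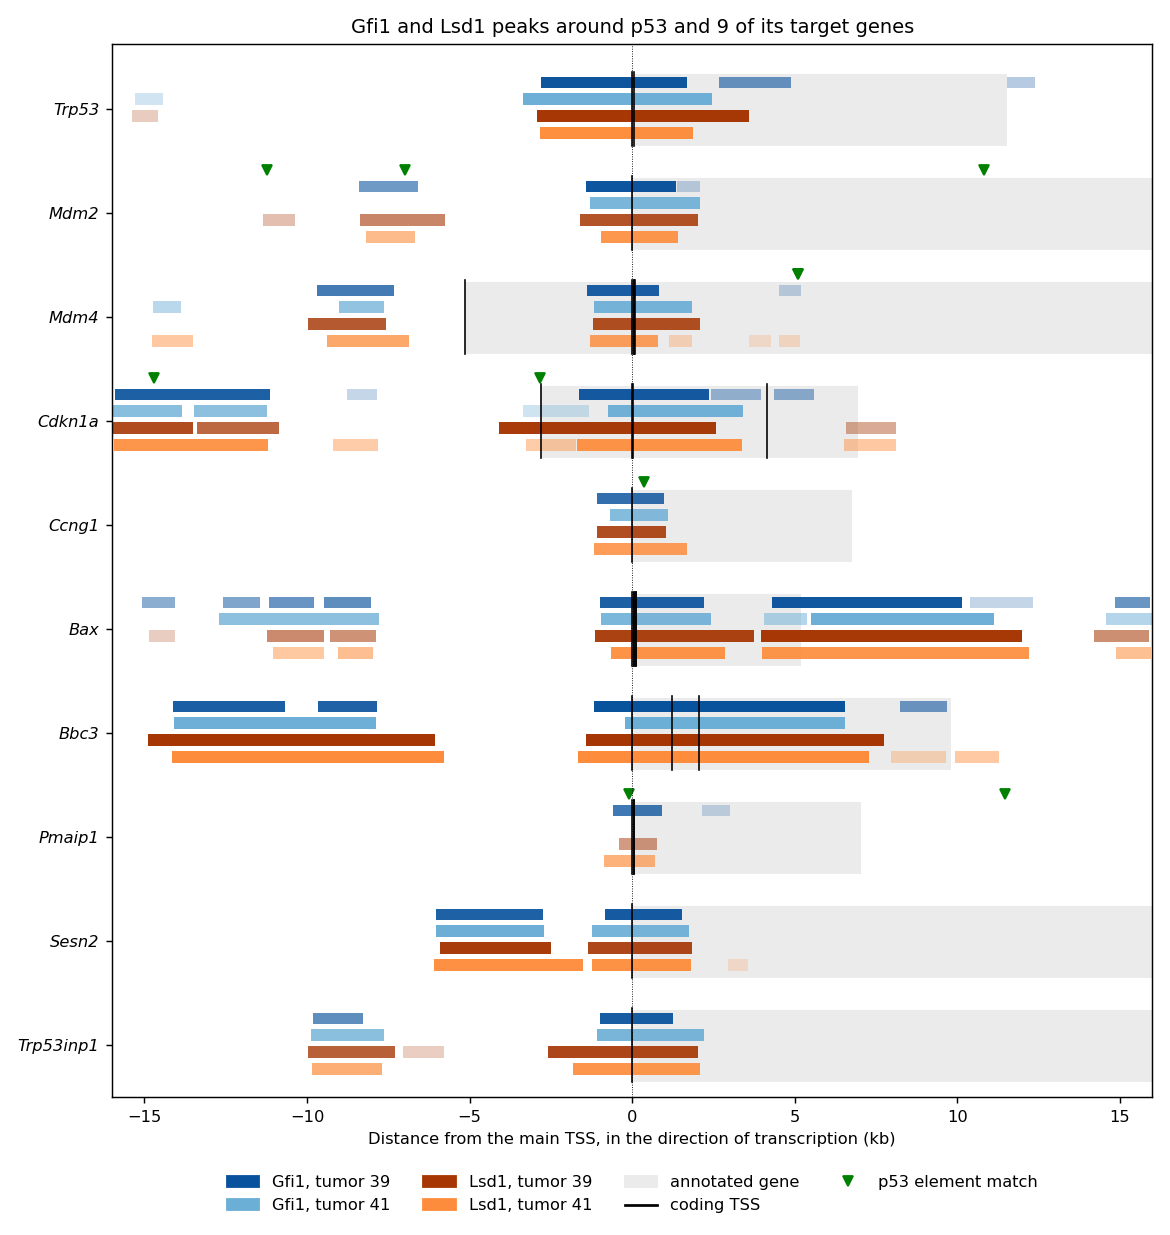
Peaks of the 4 libraries around each gene (rows within a gene), drawn by distance from the main TSS in kb with the direction of transcription to the right. Darker bars have a higher percentile, grey boxes are annotated genes, vertical lines are coding TSSs and green triangles are p53 element matches, and the peaks over the TSS are wider at Bbc3 (6738 to 9159 bp) than at Pmaip1 (1150 to 1576 bp).

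Trp53 itself (chr11:69580359-69591873, plus strand) carried some of the strongest peaks of the group. The peak over its TSS stood at percentile 96.9 in Gfi1 tumor 39, 98.7 in Gfi1 tumor 41, 99.1 in Lsd1 tumor 39 and 98.1 in Lsd1 tumor 41. All 4 values were high, and only 2.76% to 10.1% of coding genes with a TSS peak in the same list scored above. The Gfi1 peaks spanned chr11:69577546-69582037 and chr11:69576992-69582808, and the Lsd1 peaks chr11:69577435-69583946 and chr11:69577531-69582237. Each covered the shared promoter region of Trp53 and its divergent neighbour Wrap53, so the peaks cannot be assigned to 1 of the 2 genes. Trp53 also had a later noncoding TSS at 69588695, which no library covered. The only peak inside the gene and away from TSSs was a Gfi1 peak of tumor 39 at percentile 49.9 (chr11:69583014-69585242). The Lsd1 TSS peak of tumor 39 extended into its first part, and the tumor 41 lists had no peak there.

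Mdm2, the ubiquitin ligase that sends p53 to degradation (chr10:117688875-117710758, minus strand), was the least even of the genes covered in all 4 libraries. Its TSS peak stood at percentile 97.5 in Gfi1 tumor 39 but 87.1 in Gfi1 tumor 41, and at 81.7 in Lsd1 tumor 39 but 88.8 in Lsd1 tumor 41. The Gfi1 value was thus higher in tumor 39 and the Lsd1 value higher in tumor 41, and the 2 factors overlapped in range. The peaks were 2781, 3383, 3638 and 2356 bp wide in the same order and covered 7 of the 8 annotated TSSs. These 7 include the first promoter and the TSSs within the start of the gene, and the peaks did not separate them.

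A further region lay upstream of Mdm2, at chr10:117716519-117719153, 5761 bp from its nearest TSS and with no annotated TSS of any gene nearby. It was listed in 3 libraries, at percentile 47.0 in Gfi1 tumor 39, 50.4 in Lsd1 tumor 39 and 49.2 in Lsd1 tumor 41. Gfi1 tumor 41, the shortest list, had no peak there. The region held the p53 element printed above, at −6988 bp from the main TSS.

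Mdm4, the Mdm2 relative that masks the activation domain of p53 (chr1:132959484-133030561, minus strand), had 5 coding TSSs, of which only the inner cluster was covered. Its peak stood at percentile 90.4 in Gfi1 tumor 39 and 90.4 in Gfi1 tumor 41, and at 84.5 in Lsd1 tumor 39 and 79.2 in Lsd1 tumor 41. Both Gfi1 values were higher than both Lsd1 values, and the difference Lsd1 minus Gfi1 was −5.95 points in tumor 39 and −11.2 points in tumor 41. All 4 libraries covered the 4 coding TSSs between 133025330 and 133025416, where the noncoding gene Gm29257 also starts. None covered the upstream coding TSS at 133030561. A weaker region 1722 bp beyond that TSS, at chr1:133032283-133035387, was listed in all 4 libraries at percentiles 69.4, 66.5, 77.7 and 70.1.

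Cdkn1a encodes p21, the cyclin-dependent kinase inhibitor through which p53 halts the cell cycle (chr17:29090976-29100727, plus strand). Its downstream promoter at 29093769 was covered in every library, at percentile 93.6 in Gfi1 tumor 39, 94.7 in Gfi1 tumor 41, 97.2 in Lsd1 tumor 39 and 93.8 in Lsd1 tumor 41. The 4 values lay close together, and 8.16% to 20.1% of coding genes with a TSS peak in the same list scored above. The third coding TSS, at 29097900, was not inside a peak in any library, although in Gfi1 tumor 39 weak peaks at percentiles 25.1 and 30.8 lay 160 and 224 bp from it.

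The upstream Cdkn1a promoter, which holds the p53 element, gave an uneven picture. At the TSS group at 29090976, Gfi1 tumor 39 had no peak, Gfi1 tumor 41 had a weak peak at percentile 15.5 and Lsd1 tumor 41 a weak peak at 30.9. In Lsd1 tumor 39, a single peak of 6660 bp (chr17:29089677-29096336) spanned both promoters at percentile 97.2, so its score cannot be divided between them. In the other 3 lists the high-scoring peak thus lay at the downstream promoter and not at the p53 element, which ends 29 bp before the upstream TSS.

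A second domain lay 5′ of Cdkn1a, at the start of Trp53cor1 (lincRNA-p21), a noncoding RNA gene that is also a p53 target and is transcribed away from Cdkn1a. The peaks there contained the far upstream element, at −14721 bp from the main Cdkn1a TSS, in the first exon of a Trp53cor1 transcript. They stood at percentile 89.1 in Gfi1 tumor 39, 75.7 in Gfi1 tumor 41, 86.6 in Lsd1 tumor 39 and 91.3 in Lsd1 tumor 41. All 4 libraries were thus positive at this element, unlike at the one next to the upstream Cdkn1a TSS.

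Ccng1, which encodes cyclin G1, a partner of the phosphatase that acts on Mdm2 (chr11:40748552-40755311, minus strand), had the lowest mean percentile of the 9 genes covered throughout. Its TSS peak stood at 78.5 in Gfi1 tumor 39, 78.3 in Gfi1 tumor 41, 85.5 in Lsd1 tumor 39 and 82.5 in Lsd1 tumor 41. Both Lsd1 values exceeded both Gfi1 values, by 6.98 points in tumor 39 and 4.20 points in tumor 41. Against the coding genes these were ordinary positions, with 36.4% to 59.0% of genes with a TSS peak scoring above. The peaks were 2043, 1774, 2120 and 2855 bp wide, below the median of coding genes in every library but Lsd1 tumor 41. All 4 contained the p53 element printed above, 365 bp into the gene in its first intron.

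Bax, the pore-forming protein of the outer mitochondrial membrane (chr7:45461697-45466898, minus strand), was covered over all 6 of its annotated TSSs in every library. Its peak stood at percentile 89.2 in Gfi1 tumor 39, 86.3 in Gfi1 tumor 41, 92.7 in Lsd1 tumor 39 and 93.0 in Lsd1 tumor 41. Lsd1 was the higher factor in both tumors, by 3.49 and 6.73 points. Peaks covered between 59.9% and 96.2% of this short gene. Part of that cover came from its 3′ neighbour, since a peak over the start of Ftl1, the ferritin light chain gene, reached into the last part of Bax in 3 libraries, at percentile 96.1 in Gfi1 tumor 39, 98.6 in Lsd1 tumor 39 and 90.6 in Lsd1 tumor 41. In Gfi1 tumor 41 the Ftl1 peak, at 98.4, ended before Bax, and a separate peak at 38.4 covered its last part.

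Bbc3, which encodes the BH3-only killer PUMA (chr7:16308393-16318205, plus strand), had the strongest and widest TSS peaks of the group. Its percentile was 99.7 in Gfi1 tumor 39, 99.4 in Gfi1 tumor 41, 99.9 in Lsd1 tumor 39 and 99.8 in Lsd1 tumor 41. The score was at the tied value of 3100 in all lists but Gfi1 tumor 41, and 0.226% to 1.90% of coding genes with a TSS peak in the same list scored above. The peaks spanned chr7:16307224-16314940 and chr7:16308186-16314923 for Gfi1, and chr7:16306984-16316142 and chr7:16306736-16315670 for Lsd1. At 7717, 6738, 9159 and 8935 bp, they covered all 4 annotated TSSs and 66.6% to 91.4% of the gene was inside a peak of some kind. Only 2.15% of the coding genes covered throughout had a wider mean peak.

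Bbc3 also had a second domain upstream, at chr7:16293499-16302604, which ended 5789 bp before its first TSS and held no annotated TSS. In Gfi1 tumor 39 it was split into 2 peaks at percentiles 90.8 and 88.4. In the other libraries it was 1 peak, at 98.7 in Gfi1 tumor 41, 99.9 in Lsd1 tumor 39 and 99.8 in Lsd1 tumor 41. Outside Gfi1 tumor 39 the upstream domain therefore ranked about as high as the promoter itself. It was picked out after the values had been seen, and the lists do not say which gene it belongs to. No p53 element matched within 15000 bp of Bbc3 under the rule used here, which says only that these letters were not found in that window.

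Pmaip1, which encodes NOXA, another BH3-only protein (chr18:66458533-66465565, plus strand), stood apart from the rest. Its TSS peak was at percentile 72.2 in Gfi1 tumor 39, 37.9 in Lsd1 tumor 39 and 59.4 in Lsd1 tumor 41, and no peak was listed in Gfi1 tumor 41. All 3 values lay below the medians of coding genes, and 70.7% to 91.2% of coding genes with a TSS peak scored above. The peaks were 1497, 1150 and 1576 bp wide, narrower than those of any other gene of the group in the same library. A missing peak in this library was not unusual: 931 coding genes (4.24%) had a TSS peak in the other 3 libraries but not in Gfi1 tumor 41, the shortest list, whereas Gfi1 tumor 39, Lsd1 tumor 39 and Lsd1 tumor 41 alone lacked one at 0.0957%, 0.574% and 0.119% of genes. A p53 element with 2 mismatches lay at −94 bp from the main TSS, inside all 3 peaks.

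Sesn2, the sestrin that restrains growth signalling under stress (chr4:132492032-132510501, minus strand), had 1 annotated TSS, and the noncoding gene Gm12981 starts close by. Its TSS peak stood at percentile 93.4 in Gfi1 tumor 39, 90.7 in Gfi1 tumor 41, 88.5 in Lsd1 tumor 39 and 94.4 in Lsd1 tumor 41. The factors overlapped in range, with Gfi1 higher in tumor 39 and Lsd1 higher in tumor 41. The nearest upstream region, chr4:132512007-132516586, began 1506 bp from the TSS and held no annotated TSS. It stood at 88.9, 99.3, 96.5 and 96.4 in the same order, above the promoter peak in every library but Gfi1 tumor 39.

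Trp53inp1, a stress-induced nuclear protein that aids p53 phosphorylation (chr4:11156431-11174379, plus strand), had a TSS peak at percentile 92.1 in Gfi1 tumor 39, 89.4 in Gfi1 tumor 41, 89.2 in Lsd1 tumor 39 and 89.6 in Lsd1 tumor 41. These were among the most even values of the group. The Lsd1 peaks were 4619 and 3894 bp wide, and the Gfi1 peaks 2241 and 3291 bp, so both Lsd1 peaks were wider than both Gfi1 peaks. An upstream region at chr4:11146476-11149125 was listed in all 4 libraries at 56.4, 73.9, 74.3 and 63.8.

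Ordered by the mean percentile over the 4 libraries, Bbc3 came first at 99.7 ± 0.244 (SD, n = 4 libraries of 2 tumors), followed by Trp53 at 98.2 ± 0.961 and Cdkn1a at 94.8 ± 1.66. Sesn2 (91.8 ± 2.67), Bax (90.3 ± 3.18), Trp53inp1 (90.1 ± 1.34), Mdm2 (88.8 ± 6.58) and Mdm4 (86.2 ± 5.39) followed, and Ccng1 was last at 81.2 ± 3.45. Only the gaps from Bbc3 to Trp53 and from Trp53 to Cdkn1a were larger than the SDs of the 2 genes added together. The first of these rests on how ties are ranked: with tied scores at their middle rank, Bbc3 stood at 99.2 ± 0.462, and its gap to Trp53 was below the summed SDs of 1.42. The place of Cdkn1a rests on taking its highest-scoring peak. With the peak whose midpoint lay closest to any of its TSSs, its mean was 59.3 ± 42.2, the lowest of the 9 genes. The midpoint rule disfavours wide peaks, and in both tumor 41 lists the strong, wider peak also covered TSSs of the gene. The gaps between neighbours from Cdkn1a down to Ccng1 were below their summed SDs. These SDs take in both factors as well as both tumors, so they are not a spread between replicates. By role, the 3 apoptosis genes took positions from the top of the order (Bbc3) to outside it (Pmaip1).

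**Figure D3:**
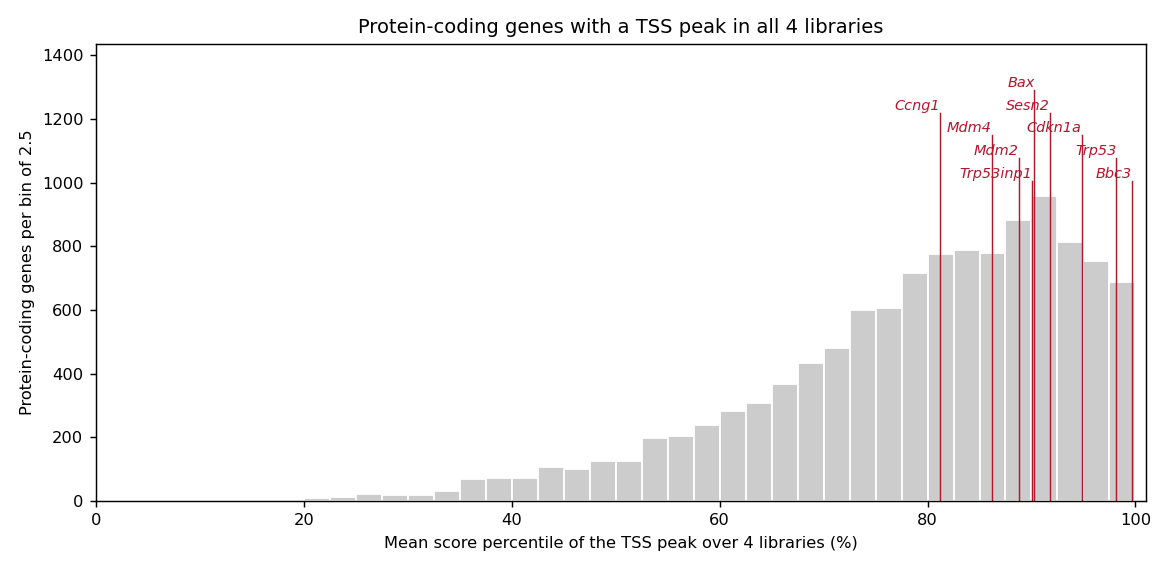
Coding genes with a TSS peak in all 4 libraries (y axis, genes per bin of 2.5 points), by the mean percentile of their TSS peak over the 4 libraries (x axis, %), with red lines at 9 p53 genes. The median of the 11653 coding genes was 82.0, and 8 of the 9 lines lie above it, with Ccng1 at 81.2 just below.

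The TSS peaks were on the whole wide. The mean width over 4 libraries had a median of 3511 bp over the 9 genes, against 2432.5 bp over 11653 coding genes. Cdkn1a and Trp53 followed Bbc3, with means of 4980 and 5382 bp, and Ccng1 was the narrowest of the 9 at 2198 bp, a width that 60.7% of the coding genes exceeded. The Lsd1 peak of tumor 39 was the widest of the 4 at 8 of these 9 genes, all but Ccng1, and at 41.6% of the coding genes covered throughout. That list also had the widest peaks at coding genes as a whole, with a median of 2516 bp. The group median rose or fell when any 1 library was left out, between 3142 and 3933 bp, and stayed above that of the coding genes as given.

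**Figure D4:**
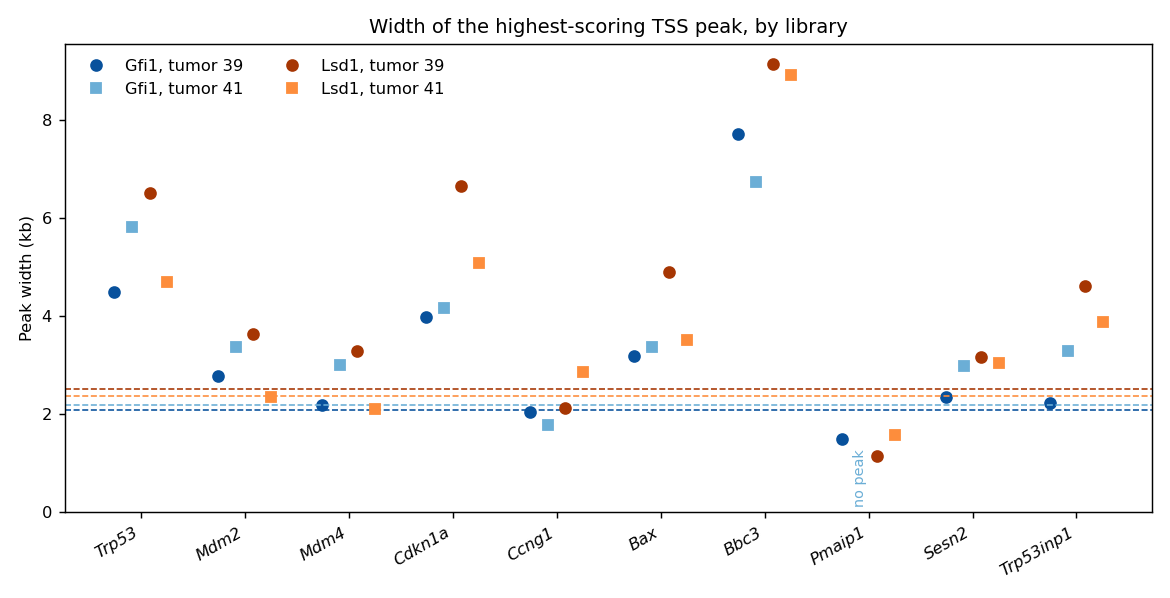
Width of the highest-scoring TSS peak of each gene in kb (y axis), with 1 point for each library and dashed lines at the median of coding genes in that library (2085.5 to 2516 bp). Bbc3 lies highest in every library, and Pmaip1 lies lowest in the 3 libraries in which it has a peak.

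Gfi1 and Lsd1 were found together at these promoters. The highest-scoring Gfi1 and Lsd1 TSS peaks overlapped in both tumors at 9 of 10 genes, all but Pmaip1, against 50.6% of coding genes. Most of this follows from the presence of peaks, since among coding genes covered in all 4 libraries the share was 95.2%. The overlap was not complete. The bases shared by the 2 peaks, as a percentage of the bases covered by either, ranged from 48.5% at Trp53inp1 to 96.4% at Ccng1 in tumor 39, and from 62.1% at Ccng1 to 97.7% at Sesn2 in tumor 41. The medians were 71.5% and 78.3%, below the 79.98% and 79.5% of coding genes. The same measure between tumors had a median of 76.3% for Gfi1 (coding genes 80.2%) and 72.1% for Lsd1 (coding genes 84.0%). Libraries of different factors from 1 tumor thus overlapped at these genes over a range similar to that of libraries of 1 factor from different tumors.

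Most genes did not lean to the same factor in both tumors. The Lsd1 percentile exceeded that of Gfi1 in both tumors at Ccng1, Bax and Bbc3, and Gfi1 exceeded Lsd1 in both at Mdm4. These were 3 and 1 of the 9 genes covered throughout, where 19.4% and 20.1% of such coding genes went either way in both tumors. At Trp53, Mdm2, Cdkn1a, Sesn2 and Trp53inp1 the sign changed between tumors, and at Mdm2 the difference went from −15.9 points in tumor 39 to 1.66 points in tumor 41. At Bbc3, where the differences were 0.203 and 0.442 points, tied scores limited what could be seen.

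Away from TSSs, peaks in the gene bodies were listed for most genes but not throughout the libraries. A peak inside the gene and over 1000 bp from any TSS was listed in at least 1 library for 7 of the 10 genes, against 29.4% of coding genes. In all 4 libraries it was listed for 0 of 10, against 9.58% of coding genes, and a count of 0 among 10 genes is near that background. Mdm2, Ccng1 and Trp53inp1 had none in any library. The gene body peaks of the other 7 genes were weak, from percentile 0.403 (Mdm4, Lsd1 tumor 41) to 49.9 (Trp53, Gfi1 tumor 39). The only such peak of Pmaip1 stood at 1.38 and that of Sesn2 at 1.17, close to the lowest score of their lists. Within 10000 bp of the genes there were 20 separate regions without any TSS nearby, of which 5 were listed in all 4 libraries and 9 in a single library. The 5 were the upstream regions of Mdm4, Bbc3, Sesn2 and Trp53inp1 described above and a weaker one downstream of Bbc3 (chr7:16325653-16327073, percentiles 36.7 to 47.2). All of these regions were looked up after the TSS values were known.

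p53 elements lay inside Gfi1 or Lsd1 peaks at some genes only. In 479456 bp searched around the 10 genes, of which 15.7% to 21.5% lay in peaks depending on the library, 14 elements were found near 6 genes. Of these, 3 lay in a peak in all 4 libraries (the far upstream element of Cdkn1a, the one in the first intron of Ccng1 and one 21145 bp downstream of the Ccng1 TSS), 6 in 1 to 3 libraries and 5 in none. The 2 overlapping matches inside Mdm4 lay in peaks of only 2 libraries, at percentiles 5.40 and 6.41. An element within 5000 bp of the main TSS was found at Cdkn1a, Ccng1 and Pmaip1, 3 of 10 genes, against 6.15% of 21853 coding genes, and with at most 1 mismatch at 2 of 10, against 1.25%. Trp53, Mdm2, Mdm4, Bax, Bbc3, Sesn2 and Trp53inp1 had no match to the rule within 5000 bp of the main TSS. The 2 overlapping matches inside Mdm4 fell just beyond that window, at 5101 and 5111 bp. The rule takes only adjacent half-sites with both cores intact. Elements of other forms were not searched for, so no match does not mean that a gene lacks a p53 element.

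The core of the known Gfi1 motif, AATCAC, was searched for on both strands within 500 bp of the main TSS. It occurred at Mdm2, Bbc3 and Sesn2, 3 of 10 genes, against 27.3% of coding genes, a share near that of any promoter. CpG counts in the same window ran from 14 at Bbc3 to 96 at Mdm2, with a median of 57.5 against 42 for coding genes. The low count at Bbc3 belongs to its first annotated TSS, since the 3 RefSeq promoters of this gene, which lie further inside, held 30 to 39 CpGs. RefSeq promoters were found for 8 of the 10 genes, not for Pmaip1 and Trp53inp1, and 10 of their 12 promoters lay wholly inside a peak in all 4 libraries. The other 2 were the upstream promoters of Cdkn1a and of Mdm4, the latter covered in 0 libraries. The share of all RefSeq promoters that lie inside peaks was not computed, so the count of 10 of 12 has no background.

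Around the core group, 43 further genes of the p53 pathway were read in the same way. All 9 kinases and coactivators and all 12 arrest and repair targets had a TSS peak in the 4 libraries, as did 6 of 7 genes of p53 turnover and inhibition and 11 of 13 apoptosis and metabolism targets. High-confidence peaks of both factors were found at 5, 8, 4 and 6 of these genes, respectively. Of the 2 p53 family genes, Trp73 had a TSS peak in all 4 libraries and Trp63, which is used mainly in epithelia, had none in any.

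The highest mean percentiles among them belonged to Ddit4, a stress-induced inhibitor of growth signalling (98.8 ± 1.35, SD, n = 4), Ppm1d, the phosphatase that ends the p53 response (98.2 ± 1.10), and Ep300, an acetyltransferase that acts with p53 (97.1 ± 3.11). The lowest belonged to Eda2r (43.7 ± 19.9) and Tnfrsf10b (59.8 ± 10.9), both receptors of the tumor necrosis factor receptor family, and to Trp53bp1, a DNA break repair factor (62.2 ± 8.44). The top 3 lay above Cdkn1a and the lowest 3 below Ccng1. Peaks in some libraries only were found at 3 pathway genes. Cdkn2a, whose ARF product blocks Mdm2, and Perp, a membrane protein induced by p53, lacked a peak only in Gfi1 tumor 41, as Pmaip1 did, and Fas, a death receptor, had a peak only in Lsd1 tumor 41.

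**Figure D5:**
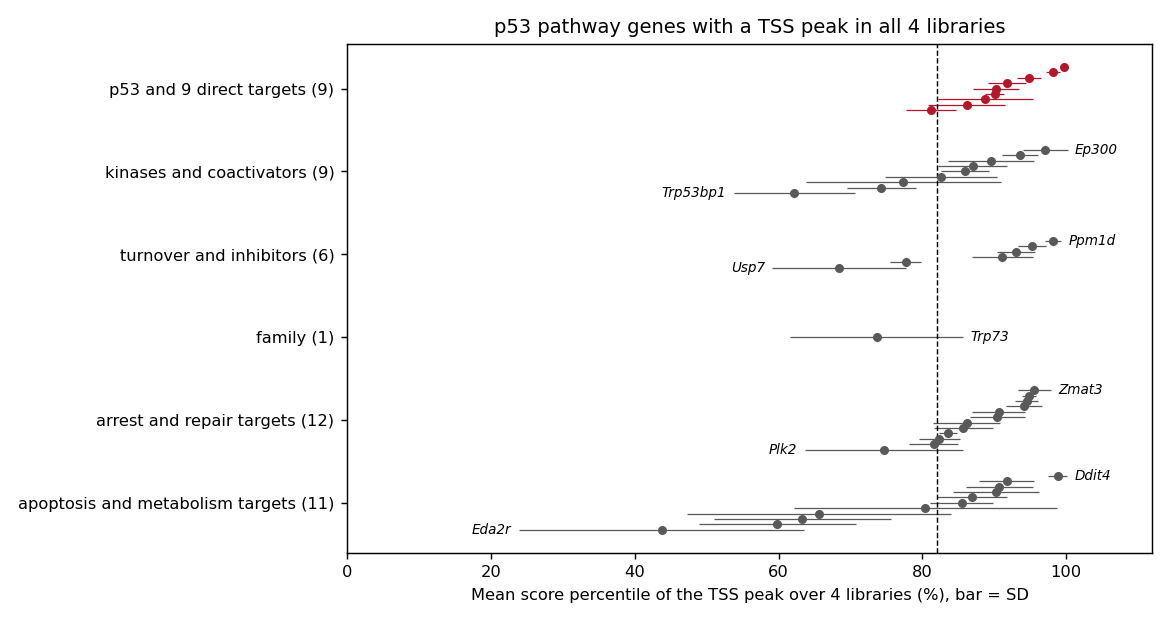
Mean percentile of the TSS peak over the 4 libraries (x axis, %, bars are the SD of 4 libraries) for genes covered in all 4, with the 9 p53 genes in red, 39 other pathway genes in grey by role, and a dashed line at the median of coding genes (82.0). The p53 genes lie from 81.2 to 99.7, and the pathway genes from 43.7 (Eda2r) to 98.8 (Ddit4).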

How the data were processed

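Gfi1 and Lsd1 ChIP-seq was done on frozen MG tumors, with 1 library of each factor from tumors 39 and 41, and same-numbered libraries came from the same tumor. Per the labels and the study's methods, reads were aligned to mm10 with BWA (version 0.6.2), FastQC and Picard were applied, and peaks were called with MACS for each library. The deposited lists give the position and a score of each peak, and the score was at least 50 in every list. The authors' sources used here do not define this score, so it was turned into a percentile within its list. The lists give no read depth, which leaves the precision of a single peak unknown.

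Genes and TSSs came from GENCODE M21, and bases from GRCm38.p6, which holds every peak end within its chromosome lengths. A TSS peak lay within 1000 bp of any TSS of a gene, and the highest-scoring one stood for the gene. The main TSS was the coding TSS furthest upstream in the TSS group (starts joined within 500 bp) with most coding transcripts. The high-confidence sets followed the rule of the study's methods, with the deposited score in place of enrichment, so they are not the study's own sets and may differ from them in size. Overlap between factors needed at least 1 bp. Percentiles, widths and overlaps were computed in Python 3.11.15 with numpy 2.4.6 and pysam 0.24.0, and the peak and motif searches were tested on simulated data. The share of coding genes stands beside the counts of the 10 genes in each kind of comparison except the cover of RefSeq promoters and the alternative settings. No test was run.

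The 10 genes and the list of 43 pathway genes were chosen with earlier results of these data known. All 10 are named. Of the pathway list, those with no TSS peak in any library and the 3 highest and 3 lowest mean percentiles are named, and the 3 genes with peaks in some libraries only were named after their values were seen. Alternatives covered the window, the TSSs and peak used, the score and overlap cuts, tied scores and the order of the genes (both added after seeing the data) and each library left out.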

Additional observations from a re-analysis of the deposited data

How the results depend on the processing

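Of 86 alternatives, 71 left a count within 1.5 times its value as given or a median within the spread between libraries, and 15 went beyond it. Part of the 71 could not have moved. Where the count was 7, 8 or 9 of 10 genes, an alternative that only loosens the rule can raise it to 10 at most, which is within 1.5 times. A wider window for TSS peaks is one example. The tally of 71 is therefore not a measure of stability. With only the upper 10% of scores, high-confidence peaks of both factors fell from 7 to 3 genes, those of Gfi1 from 8 to 5 and those of Lsd1 from 8 to 4. With 80% replicate overlap, the count for both factors was also 3 and that for Lsd1 was 4. The share of coding genes was not computed under any alternative, so these counts have no background. The median Gfi1 percentile of 92.0 became 94.2 with a window of 5000 bp and 85.8 when ranked among TSS peaks only. The median Lsd1 percentile of 90.4 became 92.5 with the 5000 bp window, 87.3 with the peak whose midpoint lay closest to a TSS and 82.6 among TSS peaks only. The median width of 3511 bp ranged from 3142 to 3933 bp with each library left out. The gene body count of 0 became 1, Bax, when only a gene's own TSSs were avoided. For single genes, 145 of 171 alternatives stayed within the spread, and 26 moved, 18 of them by ranking among TSS peaks only. Here the spread is the SD of a gene's 2 replicate values, so leaving out 1 replicate could not move any gene, and 0 did. Those alternatives, and the middle rank for genes without a tied score, were the same by construction and do not speak for stability. The furthest move was that of Cdkn1a with the peak closest to a TSS by midpoint, from 94.2 to 54.6 for Gfi1 and from 95.5 to 64.1 for Lsd1. Under that rule, weak peaks at its upstream TSS stood for the gene in both tumor 41 lists. With tied scores at their middle rank, Bbc3 stood at 98.99 for Gfi1 and 99.4 for Lsd1, and the gap from Bbc3 to Trp53 fell below the summed SDs. Without Gfi1 replicate 2, the count of genes with a TSS peak in every library was 10 in place of 9. The causes of these shifts were not tested beyond what each alternative changes. No paired analysis was possible because no result comes from a test that a tumor block could enter, and differences within each tumor are given only as values. Pairing Gfi1 of one tumor with Lsd1 of the other gave overlap at 9 genes, as did the pairing within tumors. Depth could not be weighed, since the lists hold no read counts.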
